A study of Rattus norvegicus with 6 samples.

Results

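The 10 hepatic acute phase genes, Hp, Orm1, A2m, Crp, Lbp, Serpina3n, Lcn2, Stat3, Cebpd and Socs3, were measured in the livers of 6 male Sprague-Dawley rats, 1 one-colour array per animal. They were found on the array by the RefSeq accession of each probe, which gave 16 probes for the 10 genes, of 61657 probes other than controls and 15284 genes named on the array. The corn oil group, the vehicle, held 3 animals, and the phenolphthalein group held 3 animals given 1000 mg per kg per day of this indicator dye, formerly a laxative. Animals of both groups were 5 weeks old when bought and ate a basal diet. The labels give 28 days in the design text and 9 weeks in the treatment protocol, so the length of treatment is not settled. The liver was sampled whole, so in these samples fewer cells of a type and less RNA per cell cannot be told apart.

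The acute phase response is the change in plasma proteins that the liver makes when tissue is injured or infected. Interleukin-6 and related cytokines bind receptors that share the gp130 chain, Janus kinases then activate the transcription factor STAT3, and STAT3 together with C/EBP factors switches on genes of secreted proteins. SOCS3, itself a STAT3 target, shuts the receptor down again. In the rat, alpha-2-macroglobulin is the classical strongly inducible acute phase protein, while C-reactive protein is abundant in plasma without inflammation.

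Of the 10 members, 6 had an entry in the RefSeq promoter table, build GRCr8. The 250 bases before the start are shown for the 4 secreted proteins among them, whose means ran from higher with phenolphthalein (Orm1, Lcn2, Serpina3n) to nearly level (Crp), and not for the regulators Stat3 and Socs3. Each runs 5′ to 3′ on the gene's strand, and capitals mark any match, on either strand, to the STAT element TTCNNNGAA, the acute phase response element core CTGGGAA or the C/EBP element TTGCNNAA.
Orm1, chr5:81788259-81788508, plus strand: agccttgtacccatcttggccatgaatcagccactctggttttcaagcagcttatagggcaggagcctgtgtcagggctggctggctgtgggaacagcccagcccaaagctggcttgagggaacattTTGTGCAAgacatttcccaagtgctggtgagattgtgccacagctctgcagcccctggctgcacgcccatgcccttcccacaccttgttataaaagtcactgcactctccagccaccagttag
Serpina3n, chr6:129088142-129088391, plus strand: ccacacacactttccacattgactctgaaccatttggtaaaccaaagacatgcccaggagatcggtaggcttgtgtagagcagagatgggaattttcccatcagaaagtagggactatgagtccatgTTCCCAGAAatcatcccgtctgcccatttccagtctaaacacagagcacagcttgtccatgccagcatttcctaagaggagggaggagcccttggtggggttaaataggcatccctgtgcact
Lcn2, chr3:36081781-36082030, minus strand: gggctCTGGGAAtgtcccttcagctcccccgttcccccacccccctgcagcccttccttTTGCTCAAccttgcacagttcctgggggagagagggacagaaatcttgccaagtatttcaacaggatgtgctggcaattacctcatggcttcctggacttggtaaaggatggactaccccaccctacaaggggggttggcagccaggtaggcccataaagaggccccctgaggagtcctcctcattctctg
Crp, chr13:87693812-87694061, plus strand: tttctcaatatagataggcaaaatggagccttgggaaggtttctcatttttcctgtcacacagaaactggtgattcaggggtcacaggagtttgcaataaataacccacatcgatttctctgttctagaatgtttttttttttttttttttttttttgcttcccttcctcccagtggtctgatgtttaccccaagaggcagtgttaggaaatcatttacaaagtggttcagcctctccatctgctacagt
The Orm1 window held 1 match, TTGTGCAA, the C/EBP element on the minus strand, 123 to 116 bases before the start. The Serpina3n window held TTCCCAGAA, a match to the STAT element 123 to 115 bases before the start, and the acute phase core overlaps it on the minus strand. The Lcn2 window held the acute phase core, 245 to 239 bases before the start, and the C/EBP element as TTGCTCAA, 191 to 184 bases before it. No match was found in the Crp window. The windows of Stat3 and Socs3, whose means were also higher with phenolphthalein, held no match either. Among all 33469 promoters of the table, 7.67% held the STAT element within these 250 bases, 9.56% the acute phase core and 9.22% the C/EBP element. Over the 6 members with an entry, 1 held the STAT element, 2 the acute phase core and 2 the C/EBP element. The matches are a description of the letters.

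All 16 probes were well above background on all 6 arrays, so every member passed the filter on dim probes with no help from either group. Values are log2 of the processed signal relative to the array's 75th percentile, and a difference is the mean of the 3 phenolphthalein arrays minus that of the 3 corn oil arrays. The 75th percentile itself was 595 to 636 signal units on corn oil arrays and 551 to 578 on phenolphthalein arrays. The scaling therefore raised phenolphthalein values relative to corn oil values. On the 6 arrays, 62.1% to 65.1% of probes were well above background. Corn oil arrays lay on slide 1 and phenolphthalein arrays on slide 2, so the slide and its scan cannot be told apart from the treatment. Over the genes tested, phenolphthalein replicate 1 correlated at a Pearson r of 0.979 to 0.983 with the other arrays, which correlated at 0.987 to 0.990 among themselves. It had 1 column with some dim spots. There 6.25% of the spots well above background on all 6 arrays read more than 2 log2 units below their median. The column held the probes of 60 genes tested but no member probe and no gene of the lists below. Without those genes the r of this array was 0.987 to 0.991. The 3 animals a group limit the precision.

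No acute phase gene passed the test. By limma, with p-values adjusted by the Benjamini-Hochberg method over 11434 genes, 0 of 10 members had an adjusted p under 0.05, and the smallest was 0.239, for Orm1. Over all genes tested 0.0612% passed, so the differences of the members are given below as values with their errors. At an unadjusted p under 0.05, 3 members, Stat3, Orm1 and Hp, were on the higher side, where 7.16% of all genes tested were, and 0 were on the lower side, where 8.11% were. This count of 3 dropped to 1 when replicate 1 or 2 of the corn oil group, or replicate 2 or 3 of the phenolphthalein group, was left out, and to 2 without corn oil replicate 3. It was also 1 with the mean of each gene's probes, and 2 with normexp background correction or with no filter on dim probes. Without phenolphthalein replicate 1 it was 3 again. The mean was higher with phenolphthalein for 8 members and lower for 2, Lbp and Cebpd, against 51.8% of all genes with a higher mean. The median difference was 0.21 over the 10 members and 0.01 over all genes tested. For 3 members each phenolphthalein array read higher than each corn oil array, against 12.2% of all genes, and for 1, Lbp, each read lower, against 11%. By probe, 0 of 16 passed over 39411 probes tested (smallest limma adjusted p 0.283, and 0.0482% of all probes passed), and 13 had a higher mean, against 53.4% of all probes.

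**Figure D1:**
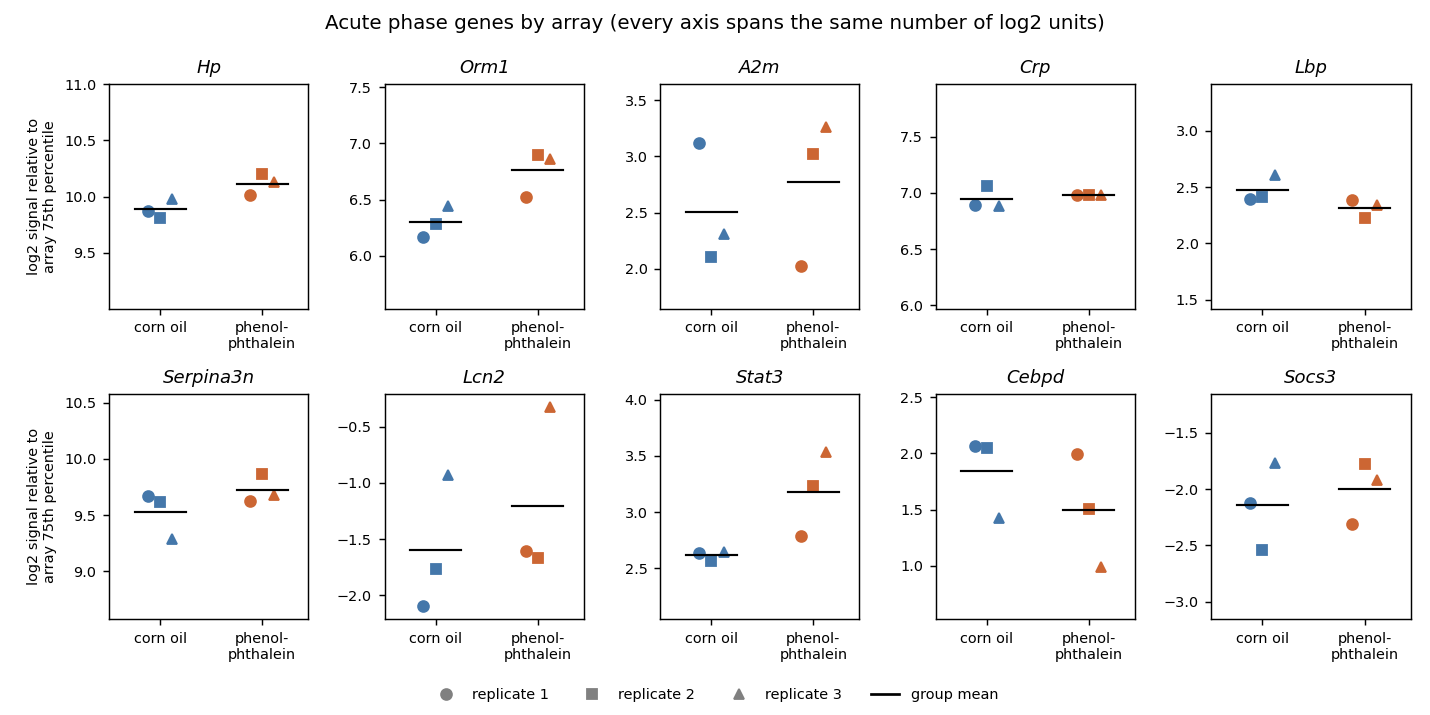
Log2 signal relative to the array's 75th percentile (vertical axis) of the brightest probe of each of the 10 acute phase genes, by group (horizontal axis), with 1 point per animal and a bar at each group mean (n = 3 per group). The groups separate for Hp, Orm1, Stat3 and Lbp and overlap for the other 6, and A2m, Lcn2 and Cebpd spread widely within each group.

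Among the secreted plasma proteins, Orm1, which codes for alpha-1-acid glycoprotein, a carrier of basic drugs in plasma, had the largest difference. Its log2 signal, in replicate order here and below, was 6.17, 6.28 and 6.45 with corn oil and 6.52, 6.89 and 6.87 with phenolphthalein. The groups did not overlap, but corn oil replicate 3 and phenolphthalein replicate 1 lay close together. The difference was 0.46 ± 0.13 (SE, 95% interval 0.13 to 0.79), a fold of 1.38, with a limma adjusted p of 0.239. In the same fit 5.77% of all genes had a smaller p, and 96.6% had a lower difference.

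Hp codes for haptoglobin, which binds free haemoglobin. Its brighter probe read 9.87, 9.81 and 9.98 with corn oil and 10.01, 10.20 and 10.13 with phenolphthalein. The scaled groups did not overlap, yet the gap between corn oil replicate 3 and phenolphthalein replicate 1 was small. Before scaling the groups overlapped, with 599895 signal units on corn oil replicate 3 and 597642 on phenolphthalein replicate 1. The difference was 0.23 ± 0.09 (SE, 95% interval 0.01 to 0.44), a fold of 1.17, with a limma adjusted p of 0.313. The other Hp probe differed by 0.21 ± 0.11 (SE) in the probe fit, with a limma adjusted p of 0.463, and its groups overlapped. Its values were 9.63, 9.49 and 9.70 on corn oil arrays and 9.65, 9.92 and 9.90 on phenolphthalein arrays, so phenolphthalein replicate 1 fell inside the corn oil range. The highest signal of the brighter probe was 84.8% of the scanner's saturation value, and no member probe was marked as saturated.

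Serpina3n, a serine protease inhibitor of the antichymotrypsin type, reached at most 67.5% of the saturation value. It read 9.67, 9.62 and 9.29 with corn oil and 9.62, 9.87 and 9.68 with phenolphthalein. Corn oil replicate 3 stood low and phenolphthalein replicate 2 high, and the groups overlapped. The difference was 0.20 ± 0.13 (SE, 95% interval -0.13 to 0.52), with a limma adjusted p of 0.520. Without corn oil replicate 3 it was 0.08.

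A2m, alpha-2-macroglobulin, a broad protease trap, varied far more between animals than between treatments. Its brightest probe read 3.12, 2.10 and 2.31 with corn oil and 2.03, 3.02 and 3.26 with phenolphthalein. Corn oil replicate 1 and phenolphthalein replicates 2 and 3 were high, the other 3 arrays were low, and the highest array was 2.36-fold above the lowest. The difference was 0.26 ± 0.41 (SE, 95% interval -0.74 to 1.26), with a limma adjusted p of 0.790. It ran from 0.01 without phenolphthalein replicate 3 to 0.63 without phenolphthalein replicate 1. The 3 probes of A2m tracked each other across the arrays, with Pearson r of 0.98 and 0.99 between the brightest and the others over 6 arrays. The other probes differed by 0.09 ± 0.40 and 0.20 ± 0.44 (SE) in the probe fit, with overlapping groups. As all 3 share the same RNA on each array, they are repeat readings of 1 gene.

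Crp, C-reactive protein, a pentraxin that binds phosphocholine on microbes and damaged cells, was nearly level. Its brighter probe read 6.89, 7.06 and 6.88 with corn oil and 6.98, 6.98 and 6.98 with phenolphthalein. The phenolphthalein arrays lay within 0.01 log2 units of each other and inside the corn oil range. The difference was 0.04 ± 0.08 (SE, 95% interval -0.16 to 0.23), with a limma adjusted p of 0.855, so a fold above 1.17 or below 0.896 lies outside the interval. The other Crp probe had a difference of -0.07 ± 0.09 (SE, 95% interval -0.29 to 0.15), with a limma adjusted p of 0.779 in the probe fit. It read 4.05, 4.20 and 4.01 with phenolphthalein, so the tight agreement of those arrays on the brighter probe was not seen on the other, and the 2 probes correlated at a Pearson r of 0.27 over 6 arrays.

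Lbp codes for lipopolysaccharide-binding protein, which carries bacterial lipopolysaccharide to CD14. It was 1 of the 2 members with a lower mean, and each phenolphthalein array read lower than each corn oil array. The values were 2.390, 2.410 and 2.612 with corn oil and 2.386, 2.228 and 2.337 with phenolphthalein. Corn oil replicate 1 and phenolphthalein replicate 1 were almost equal, and corn oil replicate 3 stood highest. The difference was -0.15 ± 0.09 (SE, 95% interval -0.39 to 0.08), with a limma adjusted p of 0.477, and it was -0.08 without corn oil replicate 3.

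Lcn2, lipocalin 2, a siderophore-binding protein that hepatocytes and neutrophils make, spread most of all the members. Lcn2 was also dim, at 146 to 439 signal units. It read -2.09, -1.77 and -0.93 with corn oil and -1.61, -1.67 and -0.33 with phenolphthalein. The third replicate of each group was the highest of its group, the groups overlapped, and the highest array was 3.40-fold above the lowest. The difference was 0.40 ± 0.46 (SE, 95% interval -0.74 to 1.53), with a limma adjusted p of 0.712, and without phenolphthalein replicate 3 it was -0.04. With normexp background correction it was 0.24. Among neutrophil markers, Elane, Cxcr2, Ngp and Mmp8 were well above background on 0 of 6 arrays, Ltf and Mmp9 on 1, and Fcgr3a, Camp and Retnlg had the smallest p of the 6 that were tested. Fcgr3a had a difference of -0.86 ± 0.17, Camp one of -0.39 ± 0.09 and Retnlg one of -0.60 ± 0.22 (SE), and 0 of the 6 passed. The alarmins S100a8 and S100a9, named after their values were seen, had differences of 0.51 ± 0.30 and 0.57 ± 0.28 (SE). The summed level of the 6 was 3.08 to 3.52 on corn oil arrays and 2.33 to 3.42 on phenolphthalein arrays, on the linear scale relative to the 75th percentile. Fcgr3a weighed most in the corn oil sums, with a mean log2 signal of 0.59 there against -0.79 for the next, S100a9. The sum is thus no even gauge of the 6 markers, and its part in the Lcn2 values was not tested.

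**Figure D2:**
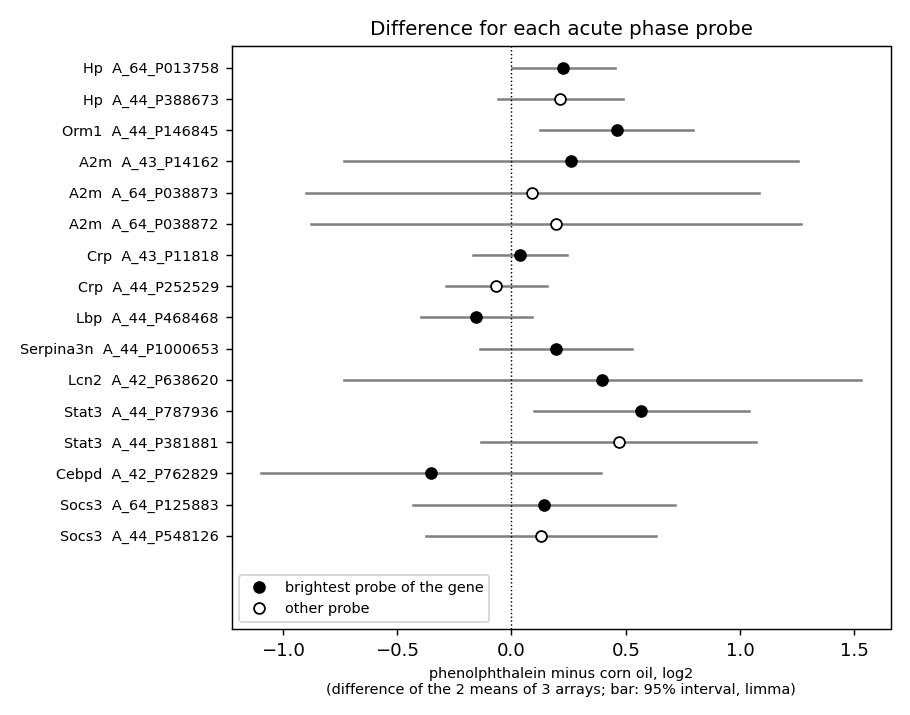
Difference between phenolphthalein and corn oil in log2 units (horizontal axis) for each of the 16 acute phase probes (rows), with the 95% interval of limma's probe fit (3 arrays per group). Filled points are the brightest probe of a gene, and the interval excludes 0 for 1 probe each of Hp, Orm1 and Stat3.

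Of the regulators, Stat3 had the largest difference of the 10 members. Its brighter probe read 2.63, 2.57 and 2.64 with corn oil and 2.78, 3.24 and 3.53 with phenolphthalein. The corn oil arrays were tightly grouped (SD 0.04, n = 3), and the phenolphthalein arrays, all above them, were spread (SD 0.38, n = 3). The difference was 0.57 ± 0.19 (SE, 95% interval 0.10 to 1.03), a fold of 1.48, with a limma adjusted p of 0.273. It was 0.39 without phenolphthalein replicate 3 and 0.77 without phenolphthalein replicate 1. The other Stat3 probe read 1.65, 1.55 and 1.62 with corn oil and 1.51, 2.37 and 2.36 with phenolphthalein. On that probe phenolphthalein replicate 1 was the lowest of all 6 arrays, so the groups overlapped, while replicates 2 and 3 again stood above every corn oil array. Its difference was 0.47 ± 0.25 (SE, 95% interval -0.13 to 1.07) in the probe fit, with a limma adjusted p of 0.465.

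Socs3, is the feedback inhibitor of gp130 signalling. Its brighter probe read -2.12, -2.54 and -1.77 with corn oil and -2.31, -1.78 and -1.92 with phenolphthalein. The groups overlapped, with corn oil replicate 2 the lowest array on both probes. The difference was 0.14 ± 0.23 (SE, 95% interval -0.43 to 0.71), with a limma adjusted p of 0.804, and it was -0.06 without corn oil replicate 2. The other probe differed by 0.13 ± 0.21 (SE). Socs3 was the dimmest member, at 109 to 174 signal units on the brighter probe and 45.6 to 71.2 on the other. With normexp background correction the difference of the brighter probe was 0.06.

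Cebpd codes for C/EBP delta, a transcription factor that inflammatory cytokines induce. It read 2.069, 2.049 and 1.422 with corn oil and 1.996, 1.504 and 0.987 with phenolphthalein. The third replicate was the lowest of each group, the reverse of Lcn2, and the groups overlapped. The difference was -0.35 ± 0.30 (SE, 95% interval -1.09 to 0.39), with a limma adjusted p of 0.611. It was -0.10 without phenolphthalein replicate 3, -0.60 without phenolphthalein replicate 1 and -0.56 without corn oil replicate 3.

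By array, the members did not move as 1 block. Each member was set against its own mean over 6 arrays, and the median of the 10 was -0.06, -0.22 and -0.08 log2 units for the corn oil animals and -0.01, 0.22 and 0.14 for the phenolphthalein animals, in replicate order. Over all genes tested the same median lay between -0.01 and 0.02 on every array. The median of phenolphthalein replicate 1 was above those of the 3 corn oil arrays, nearest to that of corn oil replicate 1. Those of phenolphthalein replicates 2 and 3 were higher. By count, 3 members lay above their own mean on each corn oil array, and 3, 7 and 8 on the phenolphthalein arrays. Phenolphthalein replicate 1 was thus level with the corn oil arrays by this count. On phenolphthalein replicate 3, 6 members lay above all corn oil arrays and 2 below, on replicate 2 these were 4 and 1, and on replicate 1 they were 3 and 2. Hp, Orm1 and Stat3 are the members above all corn oil arrays on each of the phenolphthalein arrays.

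**Figure D3:**
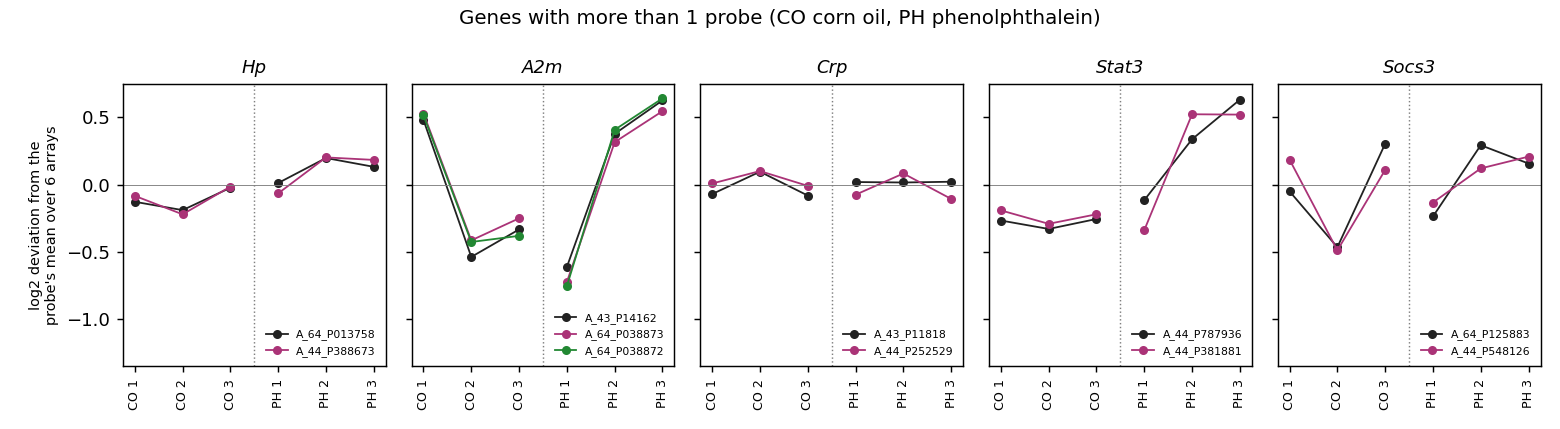
Log2 deviation of each probe from its own mean over 6 arrays (vertical axis) on corn oil and phenolphthalein replicates 1 to 3 (horizontal axis), for the 5 genes with over 1 probe, with a line per probe that joins arrays of a group for reading only. The probes of A2m, Hp, Stat3 and Socs3 move alike (Pearson r 0.84 to 0.99 over 6 arrays), those of Crp do not (0.27).

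The genes whose values ran most like a member's were taken from the other 11424 genes by Pearson r over the 6 arrays, as a description. With 6 arrays such likeness is common, since 9 to 76 genes had an r over 0.95 with a member. For Orm1 these were Hgd and Cdk9 (both 0.99), for Hp Map1lc3b and Mmp15 (0.997 and 0.995), for Stat3 Serinc1 and Mrpl47 (both 0.99) and for A2m Myoz1 and Oser1 (both 0.99). None of these 8 is a gene of the acute phase lists described next.

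The pathway around the members was described by lists of ligands, receptors, signalling factors, inhibitors and plasma proteins. Of these 89 tested entries, 0 passed in limma over all genes, and 11 had an unadjusted p under 0.05, where 15.3% of all genes tested did. Without phenolphthalein replicate 1, left out here after the data were seen, these were 0 and 9 entries, and 13% of all genes. Interleukin-6 itself, Il6, was well above background on 0 of 6 arrays and so was not tested, as was Il22. Of the 8 cytokine ligands tested, 6 had a lower and 2 a higher mean, with a median difference of -0.27. Those with the smallest p were Ctf1, cardiotrophin 1, with a difference of 0.30 ± 0.09, Tnf with -0.77 ± 0.26 and Lif with 0.29 ± 0.12 (SE), with limma adjusted p of 0.254, 0.278 and 0.349. Tnf read -1.58, -2.29 and -2.11 with corn oil and -3.21, -2.44 and -2.64 with phenolphthalein, without overlap. Ctf1 did not overlap either, on the higher side.

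Of the 9 receptor genes tested, 6 had a higher and 3 a lower mean, with a median difference of 0.18. Cd14, the lipopolysaccharide receptor chain, had a difference of 0.82 ± 0.28, Tlr4, its signalling partner, one of -0.50 ± 0.17, and Tnfrsf1a, a TNF receptor, one of 0.36 ± 0.12 (SE), each with a limma adjusted p between 0.279 and 0.282. Cd14 read 3.45, 3.16 and 2.39 with corn oil and 3.84, 4.002 and 3.62 with phenolphthalein, so its groups did not overlap. Tnfrsf1a was also wholly higher and Tlr4 wholly lower. Of the 9, 3 lay wholly higher and 1 wholly lower with phenolphthalein, against 12.2% and 11% of all genes. Osmr, the oncostatin M receptor, was well above background on 1 of 6 arrays and was not tested. The chains that bind interleukin-6, Il6r and gp130 (Il6st), named after their values were seen, had differences of 0.35 ± 0.25 and 0.19 ± 0.09 (SE). Il6st read 5.599, 5.606 and 5.392 with corn oil and 5.741, 5.718 and 5.714 with phenolphthalein, without overlap, while Il6r overlapped.

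Of 14 signalling factors tested, 9 had a higher and 5 a lower mean, with a median of 0.06. The smallest p belonged to Jak2 (-0.22 ± 0.08), Creb3l3, a liver transcription factor that activates acute phase genes (0.23 ± 0.12), and Irak1, a kinase of interleukin-1 signalling (0.23 ± 0.13, all SE). Of 11 feedback inhibitors tested, 4 had a higher and 7 a lower mean, with a median of -0.04. These began with Ptpn11, the phosphatase SHP2, at 0.24 ± 0.09, Ptpn6, the phosphatase SHP1, at -0.21 ± 0.09 and Nfkbie at -0.24 ± 0.13 (SE). Socs1 was well above background on 1 of 6 arrays and was not tested.

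Of 29 other plasma proteins and genes raised in the acute phase, 18 had a higher and 11 a lower mean, and their median difference of 0.07 was below the 0.21 of the 10 members and near the 0.01 of all genes. The smallest p belonged to Cd163, the haemoglobin scavenger receptor of macrophages, at -0.63 ± 0.15, Mbl1, a mannose-binding lectin, at -0.24 ± 0.09 and Fgg, the fibrinogen gamma chain, at 0.22 ± 0.09 (SE), with limma adjusted p of 0.195, 0.289 and 0.334. Fgg read 9.20, 9.06 and 9.09 with corn oil and 9.30, 9.24 and 9.46 with phenolphthalein, without overlap. Cd163 and Mbl1 did not overlap either, on the lower side. Of the 29, 3 lay wholly higher and 2 wholly lower with phenolphthalein, against 12.2% and 11% of all genes. Fga and Fgb, the other fibrinogen chains, named after their values were seen, had differences of 0.07 ± 0.10 and 0.10 ± 0.07 (SE). Of 18 proteins lowered in the acute phase, 12 had a higher and 6 a lower mean, with a median of 0.05. Cyp2c11, a male-predominant P450, had a difference of 0.40 ± 0.09, Itih1, an inter-alpha-trypsin inhibitor heavy chain, one of -0.24 ± 0.07, and Serpina6, the corticosteroid carrier, one of -0.38 ± 0.17 (SE), with limma adjusted p of 0.172, 0.249 and 0.362. Alb, albumin, named after its value was seen, had one of 0.01 ± 0.07 (SE).

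**Figure D4:**
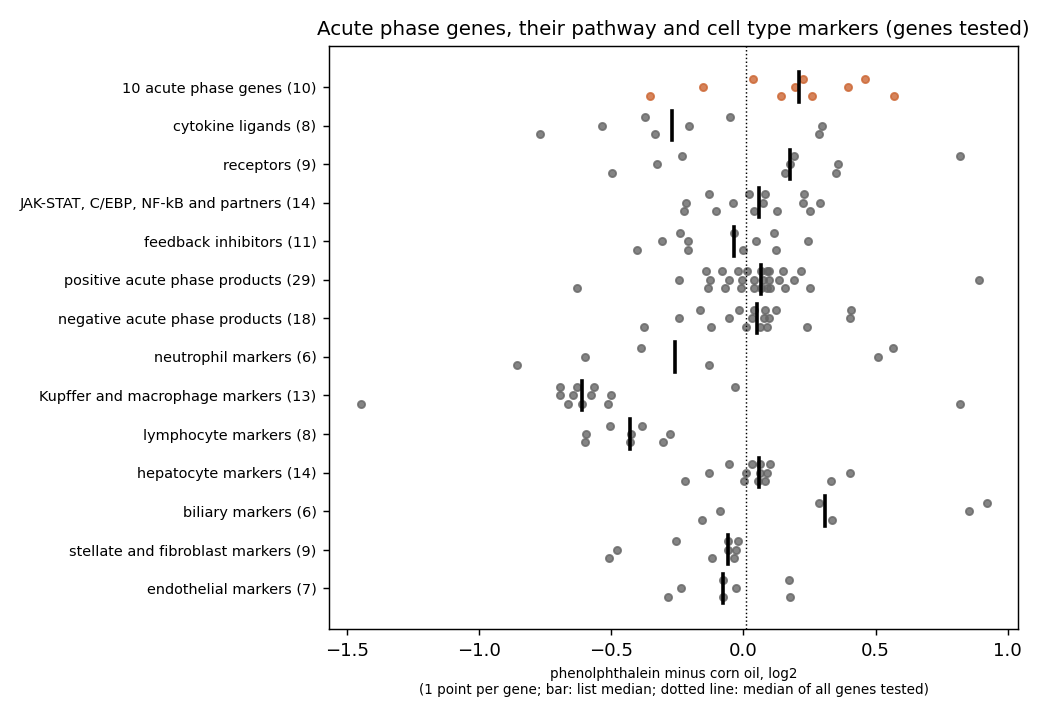
Difference between phenolphthalein and corn oil in log2 units (horizontal axis, 1 point per gene, n = 3 arrays per group) for the 10 acute phase genes and for the pathway and cell type lists (rows, genes tested in brackets), with a bar at each list's median and a dotted line at the median of all genes tested. The acute phase median is 0.21, and the lowest median is -0.61, of Kupffer and macrophage markers.

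Markers of the cell types in liver gave the setting of these values. Several hepatocyte markers, among them Alb, Cyp2c11 and Fgb, are also in the plasma protein lists above, so these lists are not independent. Of 14 hepatocyte markers 0 passed, the median difference was 0.06, and the smallest p belonged to Cyp2c11, then Cyp2e1 (-0.22 ± 0.14) and Fgb (SE). Hepatocytes are the main source of the plasma proteins, and the summed level of their markers was 6166 to 6652 on corn oil arrays and 6477 to 6749 on phenolphthalein arrays, relative to the 75th percentile. Of 13 Kupffer cell and macrophage markers, 12 had a lower mean and 1, Cd14, a higher one, and 0 passed. At an unadjusted limma p under 0.05, 10 were on the lower side and 1 on the higher, against 8.11% and 7.16% of all genes tested. Their summed level was 202 to 290 on corn oil arrays and 161 to 205 on phenolphthalein arrays. Marco had a difference of -1.45 ± 0.28, Csf1r one of -0.51 ± 0.13 and Cd163 the value given above (SE).

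Of 8 lymphocyte markers, 8 had a lower mean, with a median of -0.43, and 0 passed. Ptprc had a difference of -0.59 ± 0.11, Lck one of -0.50 ± 0.13 and Cd3d one of -0.30 ± 0.10 (SE). The summed level was 3.43 to 4.03 with corn oil and 2.46 to 2.85 with phenolphthalein. Ptprc weighed most in this sum. Its mean log2 signal was 0.71 with corn oil and 0.12 with phenolphthalein, against -0.21 and -0.51 for the next, Cd3d. The sum is thus no even gauge of the 8 markers. Of 6 biliary markers, 4 had a higher mean, with a median of 0.31 and 0 passing, led by Cftr at 0.85 ± 0.17, Spp1 at 0.92 ± 0.21 and Epcam at 0.29 ± 0.08 (SE). Their summed level was 2.04 to 2.27 with corn oil and 2.53 to 2.59 with phenolphthalein, and Epcam weighed most in it. Of 9 stellate cell markers, 9 had a lower mean, with a median of -0.06, led by Col1a1 at -0.48 ± 0.14 (SE). Of 7 endothelial markers, 5 had a lower and 2 a higher mean, with a median of -0.08, led by Cdh5 at -0.29 ± 0.09 (SE). Both lists had 0 genes past the test. Their summed levels were 37.1 to 42.2 and 48.8 to 50.2 on corn oil arrays against 31.2 to 42.6 and 46.3 to 50.04 on phenolphthalein arrays. The lymphocyte sum was lower and the biliary sum higher on each phenolphthalein array than on each corn oil array, and the macrophage sums of the groups overlapped. Orm1, Hp and Stat3 were higher on the same arrays, and the part of these cell types in their values was not tested. Without phenolphthalein replicate 1 the median of the stellate cell markers was -0.22, and those of the other lists moved by under 0.1.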

How the data were processed

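Cy3-labelled cRNA from total liver RNA was read on 1-colour arrays (labels' protocols). Spots were quantified with Agilent Feature Extraction (10.7 in the submitters' processing notes, 10.7.1.1 in the headers), which subtracts background and detrends the intensity, per the file headers. The authors also deposited a table of the same intensity, which comparison with the scanner signal showed to be linear, uncentred and divided by 1 factor per array. Its column medians were 0.0984, 0.101 and 0.102 for corn oil and 0.0955, 0.0941 and 0.096 for phenolphthalein.

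The values analysed were log2 processed signal minus the array's 75th percentile. Outlier-marked spots, 4 to 14 per array, were set missing. Every probe called well above background on 3 or more of the 6 arrays was tested with limma 3.58.1 (R 4.3.3), with Benjamini-Hochberg adjustment at 0.05. The probe fit covered 39411 probes. The gene fit covered 11434 genes, each by its brightest probe on average. Names came from unversioned accessions in RefSeq GRCr8, where 27460 probes matched 1 gene and 34197 none. Probe positions are not given, since the design and the name table use different builds. The 250 bases before each start came from the RefSeq promoter table.

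The genes named are every member with all its probes, the 3 smallest p of each list, and the 2 genes with the highest Pearson r to a member over 6 arrays. Other genes are marked in the text as named after their values were seen, or as not tested because they were dim. For stellate and endothelial markers 1 gene each is given, and like genes are given for 4 members. The members and lists were chosen with earlier results of these data known. The labels name 1 animal per array. Over the genes tested, same-numbered arrays of the groups deviated together with Pearson r of -0.02, 0.02 and -0.003. This shows no pairing by number over all genes, but it cannot exclude one that touches some genes. The fit was tested on simulated data with added changes larger than any member's difference and with no slide effect. Its power at differences as small as the members' was thus not shown. No sample was left out. Alternatives were normexp with an offset of 50 on the median spot signal, quantile normalization, scaling to the median, testing all probes and testing only those above background on all 6 arrays. Further alternatives were marked spots kept, an intensity trend with a robust prior, the deposited values, the mean of a gene's probes, the replicate number as a block and the omission of each array.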

Additional observations from a re-analysis of the deposited data

How the results depend on the processing

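No member gene or probe passed limma's adjusted threshold in the 16 alternative settings of the gene fit or the 15 of the probe fit. The direction was kept in 156 of 160 gene values and 230 of 240 probe values. Many of these could not have turned. Both changes of the filter, marked spots kept, the intensity trend and the replicate block left each member's difference as it was. The deposited values, the same signal over 1 factor per array, hardly moved it. Crp turned to -0.057 with quantile normalization and to -0.014 when its probes were averaged, and its other probe A_44_P252529 to 0.013 with a median shift. With 1 array left out, Lcn2 ran from -0.040 (without phenolphthalein replicate 3) to 0.73. Socs3 ran from -0.056 (without corn oil replicate 2) to 0.33, and its other probe A_44_P548126 from -0.082 (likewise) to 0.25. Of A2m, probe A_64_P038873 ran from -0.16 to 0.48 and was below 0 in 4 of these fits, and probe A_64_P038872 ran from -0.076 to 0.62, both lowest without phenolphthalein replicate 3. The differences of Orm1 (0.38 to 0.58), Stat3 (0.39 to 0.77) and Hp (0.14 to 0.31) stayed above 0 in all 16 settings, some of which could not move them. Their limma adjusted p ran from 0.160 to 0.464, 0.186 to 0.487 and 0.186 to 0.549. A median shift moved the median of all genes from 0.01 to 0.09 and that of the members from 0.21 to 0.29.

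With the replicate block 0 members, 0 of all genes and 0 of all probes passed, where the fit without the block had 7 genes and 19 probes. The block left the differences of Lcn2 and Cebpd as they were, with an SE of 0.13 for each. Without the block these SE were 0.46 and 0.30. With no filter 0 of 61657 probes passed. Leaving out 1 array left 0 to 6 of all genes and 0 to 5 of all probes past the threshold. With 1 array left out, 1 to 3 members had an unadjusted p under 0.05, and the median over the members was 0.07 without phenolphthalein replicate 3, 0.13 without phenolphthalein replicate 2 and 0.29 without phenolphthalein replicate 1. The cause of these changes was not tested.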

Other observations

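Some inhibitors of cytokine and growth hormone signalling stood apart on corn oil replicate 1. A2m was high on that array (3.12), but also on phenolphthalein replicates 2 and 3 (3.02 and 3.26), where these inhibitors did not stand apart. Socs2 read 1.51 on corn oil replicate 1, against -0.74 and 0.01 on corn oil replicates 2 and 3. With phenolphthalein it read 0.41, -0.11 and 0.48. Cish, a related inhibitor, read 1.43, -0.32 and 0.24 with corn oil and 0.60, 0.53 and 0.60 with phenolphthalein. Hamp, which codes for the iron hormone hepcidin and is a STAT3 target in hepatocytes, read 6.36, 6.25 and 5.85 with corn oil and 5.66, 8.71 and 6.76 with phenolphthalein. Phenolphthalein replicate 2 was thus the highest array for Hamp, Orm1, Hp and Serpina3n, while replicate 3 was the highest for A2m, Lcn2 and the brighter Stat3 probe. The difference of Hamp was 0.89 ± 0.75 (SE), with a limma adjusted p of 0.601. These genes were picked after their values were seen.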
